A study of Mus musculus with 6 samples.

Results

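Expression of 31 genes of bile acid synthesis and hepatobiliary transport was compared between liver tumors and normal livers of C3H mice. The genes were found on the array by a list of names. They comprised 9 enzymes or carriers of bile acid synthesis, 3 of conjugation, 6 uptake transporters, 4 transporters of sinusoidal export, 7 of canalicular export and 2 nuclear receptors. Their 38 probes were found through the probes' gene symbols and accessions, and 30 of the 31 genes passed the filter on dim probes, among 18545 genes tested in all. Slc51a, a subunit of the basolateral organic solute transporter, did not rise well above background in any of the 6 samples and was not tested.

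Bile acids are made in hepatocytes from cholesterol, either by the classic route that begins with Cyp7a1 or by the alternative routes that begin with an oxidation of the side chain and pass through Cyp7b1 or Cyp39a1. They are then activated to CoA esters, joined to taurine or glycine, exported into the canaliculus by Abcb11 and taken back from portal blood by Slc10a1 and members of the Slco family. The bile acid receptor Nr1h4 (FXR) senses them in the nucleus and, in part through Nr0b2 (SHP), is known to repress their synthesis and to favor their export.

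The arrays held RNA of 3 normal livers and 3 liver tumors of male C3H/HeN mice, a strain with spontaneous liver tumors. By the labels the mice were 74 to 75 weeks old. They belonged to the F2 generation of untreated controls in a project on gestational arsenic, and received the standard diet CA-1 and tap water. By the study's methods the tumors carried a mutation in Ha-ras, so they stand for that type of tumor only. Nothing in the labels says whether a normal liver and a tumor of the same number came from 1 mouse. The p-values therefore took no pairs and weighed the group difference only against the spread between these samples within each group.

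Each sample was hybridised to its own 1-color array, whose processed signal was divided by the array's 75th percentile. This ratio is called the expression value below, and it can be compared between arrays but not between probes. Log2 fold changes are liver tumor minus normal liver, and a gene was called when its adjusted p from limma, with Benjamini-Hochberg adjustment over all probes tested, was under 0.05. Between 44.7% and 48.9% of the spots of an array were well above background, no spot was saturated, and the arrays correlated at 0.980 to 0.992 within a group and at 0.914 to 0.950 between groups. All normal livers lay on 1 slide and all tumors on another, and effects of slide and of tissue cannot be told apart. Readings of local background, as array medians, came to 42, 43 and 45 for normal livers 1, 2 and 3. For tumors 1, 2 and 3 these readings were lower, at 23, 22.5 and 22. What this difference between the slides did to the values of dim genes was not tested. An exact permutation test of a single gene cannot go below p = 0.1 with 3 samples against 3.

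In the tumors, 17 of the 30 tested genes were called lower and 3 were called higher, beside 21.0% and 13.1% of all genes tested. The groups did not overlap for 23 of the 30, 19 of them with lower values in the tumors, beside 51.8% of all genes tested without overlap. Among the 17 genes called lower, 14 had fallen by at least 2-fold, and the fold ranged from 1.74 for Scp2 to 34.0 for Cyp7b1. The 3 genes called higher were Cyp39a1, Slc51b and Abcb1a, of which Slc51b was well above background in only 1 of the 3 normal livers. The median log2 fold change was -1.02 over the 30 tested genes and -0.13 over all genes tested. Under a scaling by spike-in controls, the median of all genes was 0.08, and higher calls made up 65.6% of all called probes in place of 37.8%. With that scaling 15 of the 30 genes were called lower and 3 higher, beside 7.31% and 14.0% of all genes tested.

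**Figure D1:**
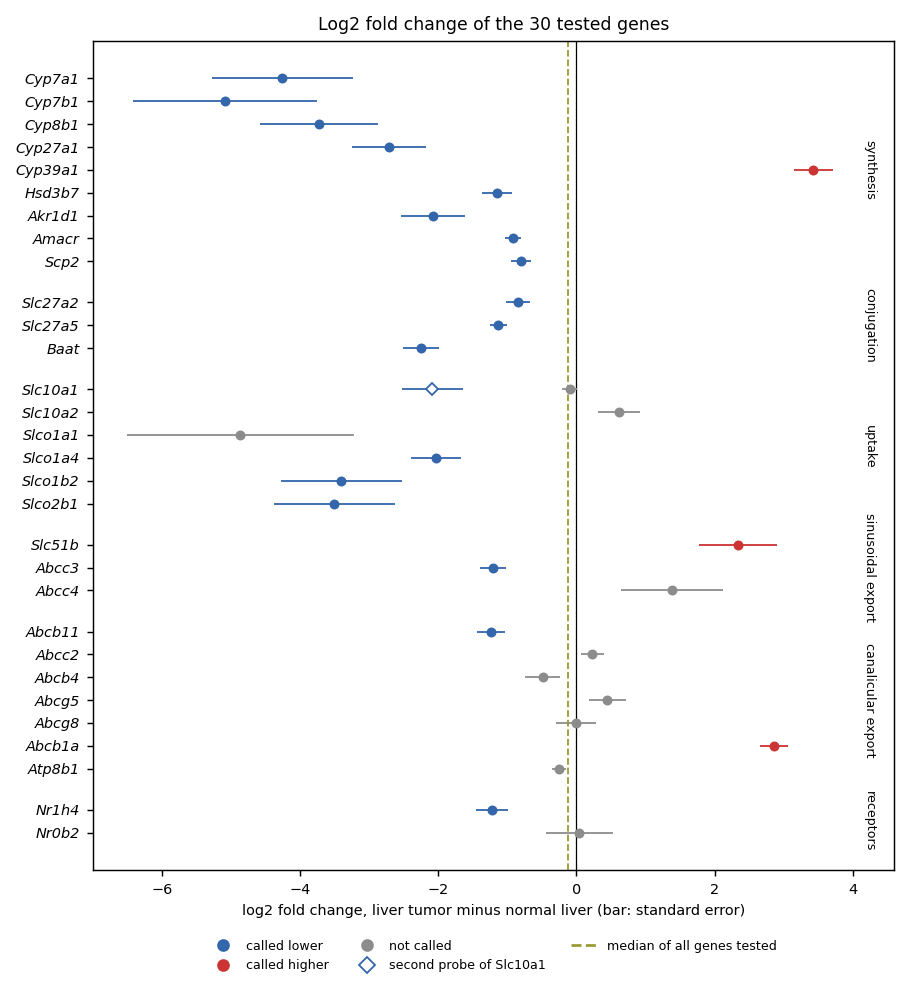
The log2 fold change (liver tumor minus normal liver, x axis) of the 30 tested genes with its standard error (bars), grouped by role. Blue marks genes called lower, red genes called higher and gray genes not called, the open diamond is the second probe of Slc10a1, and the dashed line is the median of all genes tested at -0.13.

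Most of the synthesis pathway was lower in the tumors. Of the 12 genes of synthesis and conjugation, 11 were called lower and 1, Cyp39a1, was called higher, beside 21.0% and 13.1% of all genes tested. Their median log2 fold change was -1.61. The groups did not overlap for any of the 12, beside 51.8% of all genes tested without overlap.

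Cyp7a1, the rate-limiting enzyme of the classic route (GRCm38.p6, chromosome 4, 6265612 to 6275632), had expression values of 4.27, 12.2 and 5.13 in the normal livers and 0.0877, 0.280 and 1.56 in the liver tumors. Every tumor was below every normal liver. Cyp7a1 changed by -4.25 on the log2 scale (SE 1.02, adjusted p = 0.0218), with a signal well above background in 2 of the 3 tumors. Tumor 1 was below the lowest signal well above background on its array (0.113), and with another background correction (normexp) the change was -2.92. Cyp8b1, the 12-alpha-hydroxylase that directs synthesis to cholic acid, had values of 35.4, 37.5 and 14.8 in the normal livers and 0.523, 3.44 and 4.71 in the tumors. It fell by 3.73 on the log2 scale (SE 0.85, adjusted p = 0.0187), and tumor 1 was the lowest, as for Cyp7a1.

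The enzymes of the alternative routes split. Cyp27a1, the mitochondrial sterol 27-hydroxylase that starts the acidic route, had values of 12.5, 16.6 and 12.9 in the normal livers and 0.869, 2.68 and 4.06 in the tumors. Cyp27a1 changed by -2.72 on the log2 scale (SE 0.54, adjusted p = 0.0118). Cyp7b1, the oxysterol 7-alpha-hydroxylase of the same route, fell from 292, 265 and 363 to 0.866, 23.4 and 35.2. Its log2 fold change of -5.09 (SE 1.33, adjusted p = 0.0292) was the largest among the 30 genes, and tumor 1 was far below the other tumors.

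Cyp39a1, which hydroxylates 24-hydroxycholesterol at the 7-alpha position (chromosome 17, 43667372 to 43751431), went the other way. Its expression values were 2.33, 4.42 and 2.60 in the normal livers and 41.7, 27.8 and 28.8 in the tumors, so that all tumors were above all normal livers. The log2 fold change was 3.43 (SE 0.28, adjusted p = 0.000662), a rise of 10.8-fold. Cyp7b1 and Cyp39a1 thus act on different oxysterols in parallel steps and changed in opposite directions in the same tumors. Cyp46a1, which makes 24-hydroxycholesterol, the substrate of Cyp39a1, was lower in the tumors, with a log2 fold change of -1.99 (SE 0.25, adjusted p = 0.00291).

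The enzymes of the later steps were also lower. Hsd3b7, the 3-beta-hydroxy-C27-steroid dehydrogenase shared by both routes, had values of 373, 395 and 331 in the normal livers and 119, 206 and 182 in the tumors, and its log2 fold change was -1.15 (SE 0.22, adjusted p = 0.0103). Akr1d1, the 5-beta-reductase that sets the bent A/B ring junction, had values of 1.63, 2.46 and 1.66 against 0.212, 0.635 and 0.663, a log2 fold change of -2.07 (SE 0.46, adjusted p = 0.0166), or -1.32 with normexp. Of the peroxisomal proteins of side chain shortening, the racemase Amacr fell from 99.3, 104 and 97.6 to 47.8, 52.5 and 59.3 (log2 fold change -0.92, SE 0.12, adjusted p = 0.00319). The groups were apart for each of these genes and the tumors stayed close to each other for Amacr. Scp2, the thiolase of that pathway and a sterol carrier, fell from 799, 853 and 878 to 412, 498 and 553 (log2 fold change -0.80, SE 0.14, adjusted p = 0.00776), and its second probe was also called lower, with a log2 fold change of -1.23.

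All 3 genes of conjugation were called lower, beside 21.0% of all genes tested. Baat, the N-acyltransferase that joins bile acids to taurine, had values of 7.98, 10.8 and 7.90 in the normal livers and 1.28, 2.03 and 2.43 in the tumors, with a log2 fold change of -2.25 (SE 0.26, adjusted p = 0.00219). Slc27a5, the bile acid CoA ligase, fell from 737, 735 and 707 to 298, 330 and 372 (log2 fold change -1.13, SE 0.12, adjusted p = 0.00163). Slc27a2, a very long chain acyl-CoA synthetase that can also activate bile acid precursors, fell from 485, 589 and 639 to 381, 298 and 277 (log2 fold change -0.85, SE 0.17, adjusted p = 0.0127). Slc27a2 was the only gene called lower, of these 17, in which tumor 1 was not the lowest tumor.

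**Figure D2:**
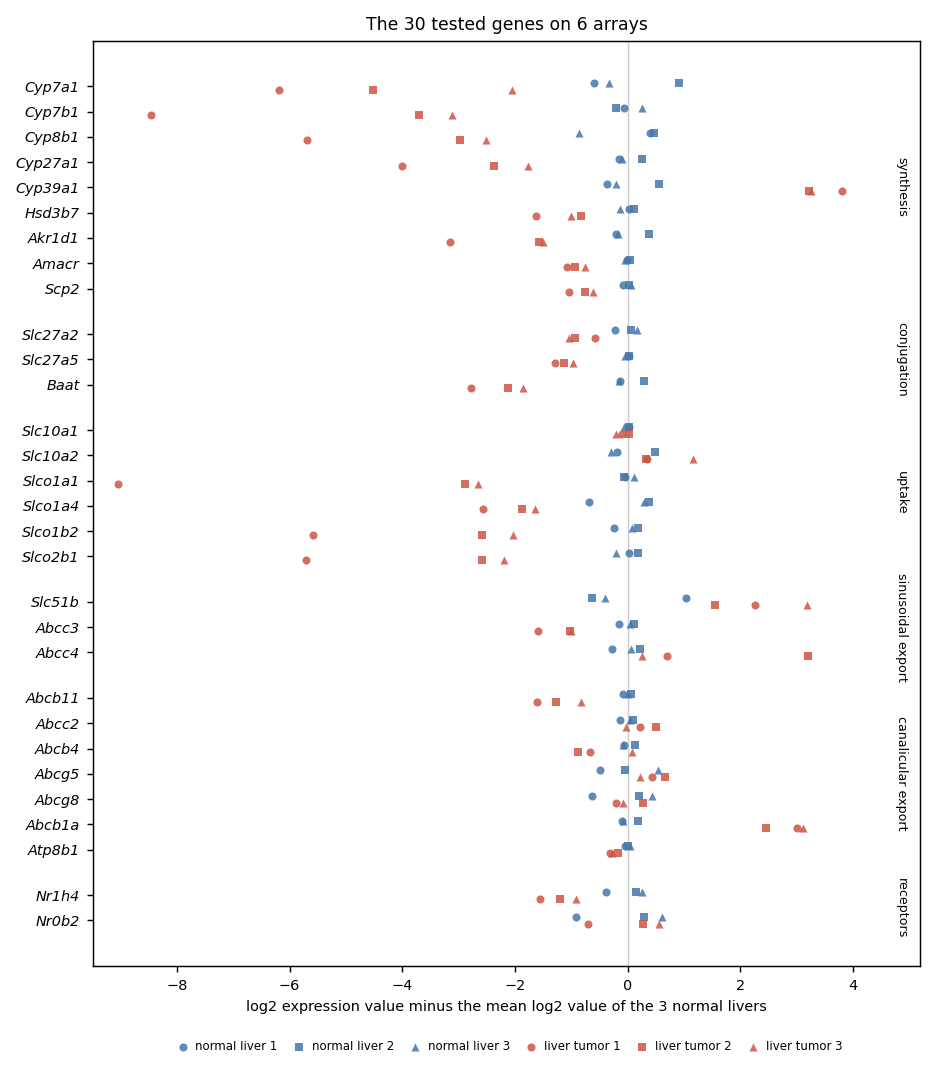
The log2 expression value of each sample minus the mean log2 value of the 3 normal livers (x axis) for the 30 tested genes, with blue symbols for normal livers, red for liver tumors and 1 shape per replicate number. Tumor 1 (red circles) is the leftmost tumor for 20 of the 30 genes, among them Cyp7a1, Cyp7b1, Cyp8b1, Slco1a1, Slco1b2 and Slco2b1. Cyp39a1, Slc51b and Abcb1a lie to the right in all 3 tumors.

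Of the 6 uptake transporters, 3 were called lower, beside 21.0% of all genes tested, and their median log2 fold change was -2.72. Slco1b2, the main hepatic organic anion transporting polypeptide of the mouse, had values of 268, 360 and 334 in the normal livers and 6.60, 53.3 and 77.6 in the tumors. Its log2 fold change was -3.40 (SE 0.88, adjusted p = 0.0277). Slco2b1, another carrier of that family, fell from 20.9, 23.4 and 17.8 to 0.391, 3.41 and 4.49, a log2 fold change of -3.50 (SE 0.88, adjusted p = 0.0257). Its second probe gave -3.67. Slco1a4 had values of 1.10, 2.29 and 2.14 in the normal livers and 0.295, 0.476 and 0.562 in the tumors (log2 fold change -2.03, SE 0.36, adjusted p = 0.00799), and changed by -1.39 with normexp.

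Slco1a1, a sex-dependent bile acid and steroid carrier of the sinusoidal membrane, was not called although its groups were widely apart. Its expression values were 17.2, 17.1 and 19.2 in the normal livers and 0.0338, 2.41 and 2.81 in the tumors, with a signal well above background in 2 of the 3 tumors. The log2 fold change was -4.86 with a large standard error of 1.64 (adjusted p = 0.0626), and tumor 1 was below the lowest signal well above background on its array. With normexp the change was -3.51 and was called (adjusted p = 0.00532). Without tumor 1 it was -2.77 (SE 0.14, adjusted p = 0.000337), and the adjusted p ranged up to 0.141 over the other alternatives. Slco1a1, Slco1a4 and Slco1b2 lie near each other on chromosome 6, between 141629452 and 141946962, and had lower values in every tumor than in every normal liver.

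The 2 probes of Slc10a1 (NTCP), the main sodium-dependent bile acid carrier of hepatocytes, gave different results. The first 30 of the 60 bases of each probe are shown because the probes differ in how many genes the array design lists for them, and no motif was marked in them.
Bright probe: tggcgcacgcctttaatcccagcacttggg
Second probe: cctacaaaggcattatgttatcactcgtca

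The bright probe, which stands for the gene under the rule of the highest mean signal, had expression values of 1229, 1226 and 1149 in the normal livers and 1118, 1218 and 1042 in the tumors. The groups overlapped, with a log2 fold change of -0.10 (SE 0.11, adjusted p = 0.544, 95% interval -0.36 to 0.17). The second probe read 24.1, 29.1 and 27.7 in the normal livers and 3.34, 6.15 and 12.4 in the tumors, with no overlap. Its log2 fold change was -2.09 (SE 0.44, adjusted p = 0.0149).

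The bright probe was the only one of the 38 whose accessions on the array design belonged to several genes, 4 of them (4930402H24Rik, Med16, Slc10a1 and Spc24). Its stretches of 16 bases also occurred in 7 probes of other genes and in 46 of 32851 RefSeq promoter windows, whereas the other 37 probes matched at most 2 windows. The printed letters are those of the B1 repeat, a short interspersed element found in very many copies in the mouse genome. What share of the bright probe's signal came from Slc10a1 was not tested. With the second probe in its place, a choice made after seeing the data, 4 of the 6 uptake genes and 18 of the 30 genes were called lower. The share over all genes tested was 21.0% in the main analysis.

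**Figure D3:**
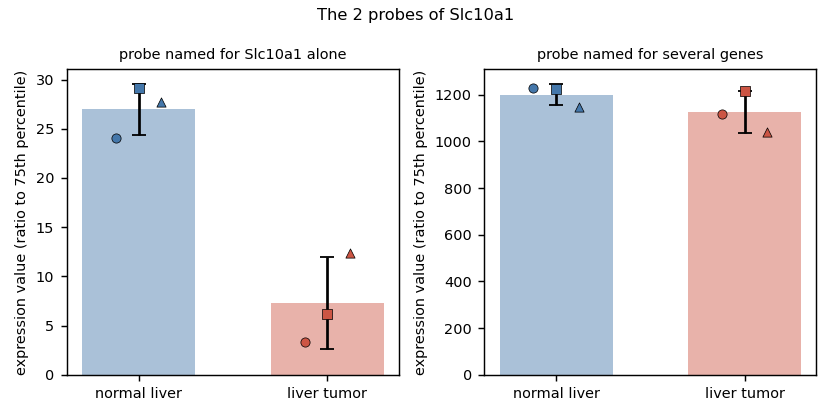
Expression values (ratio to the array's 75th percentile, y axes from 0 and on different scales) of the 2 Slc10a1 probes, with bars for the mean, error bars for the SD (n = 3) and 1 symbol per sample. The probe named for Slc10a1 alone is lower in every tumor (mean 27.0 in normal livers and 7.29 in tumors), while the probe named for several genes overlaps between the groups.

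Slc10a2 (ASBT), the apical bile acid carrier of ileum and cholangiocytes, was not called. Its values were 4.86, 7.83 and 4.51 in the normal livers and 7.06, 6.96 and 12.5 in the tumors, with overlap, and the log2 fold change was 0.61 (SE 0.31, adjusted p = 0.170, 95% interval -0.12 to 1.35).

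Of the 10 tested export genes, 2 were called lower and 2 higher, shares close to the 21.0% and 13.1% of all genes tested, and their median log2 fold change was 0.11. Abcb11 (BSEP), the bile salt export pump of the canalicular membrane, had values of 111, 122 and 117 in the normal livers and 38.4, 48.3 and 65.8 in the tumors. Abcb11 changed by -1.23 on the log2 scale (SE 0.20, adjusted p = 0.00653), and every tumor was below every normal liver. The other canalicular pump that changed was Abcb1a, a P-glycoprotein of drug and xenobiotic export, with values of 0.357, 0.434 and 0.360 in the normal livers and 3.09, 2.09 and 3.31 in the tumors. It was 7.27-fold higher (log2 fold change 2.86, SE 0.20, adjusted p = 0.000375), with a log2 fold change of 1.92 under normexp.

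Abcb4, the phospholipid floppase, lies near Abcb1a on chromosome 5, with Abcb1a at 8567091 to 8748575 and Abcb4 at 8893614 to 8959226, and was not called. Its values of 71.8, 82.3 and 71.1 in the normal livers and 47.3, 40.7 and 79.3 in the tumors overlapped because of tumor 3. The log2 fold change was -0.49 (SE 0.25, adjusted p = 0.184), and without tumor 3 it was -0.77 (adjusted p = 0.0155).

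The remaining canalicular genes were not called. Abcc2 (MRP2), the pump of conjugated organic anions, had values of 21.4, 25.3 and 24.1 against 27.3, 33.3 and 23.2, with a log2 fold change of 0.23 and a 95% interval from -0.16 to 0.62. Abcg5 and Abcg8, the partners of the canalicular sterol transporter, whose genes overlap on chromosome 17, had log2 fold changes of 0.45 (95% interval -0.20 to 1.09) and -0.0080 (95% interval -0.71 to 0.69). Abcg5 had values of 30.2, 40.9 and 61.5 in the normal livers and 57.5, 67.4 and 49.7 in the tumors, and Abcg8 overlapped as well, with values from 1.08 to 2.26 and from 1.45 to 2.02. Atp8b1, the aminophospholipid flippase of the canalicular membrane, had values of 0.967, 1.01 and 1.02 in the normal livers and 0.809, 0.885 and 0.822 in the tumors, with the groups apart and a log2 fold change of -0.25 (SE 0.10, adjusted p = 0.101).

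On the sinusoidal side the genes went different ways. Abcc3 (MRP3), a basolateral pump of conjugates, had values of 78.3, 94.4 and 89.8 in the normal livers and 28.8, 42.9 and 43.7 in the tumors (log2 fold change -1.21, SE 0.19, adjusted p = 0.00576). Slc51b, the partner subunit of Slc51a, had values of 0.256, 0.0812 and 0.0945 in the normal livers and 0.602, 0.369 and 1.14 in the tumors, with no overlap. Its log2 fold change was 2.34 (SE 0.56, adjusted p = 0.0217), but the signal was well above background in only 1 of the 3 normal livers, and the log2 fold change was 0.98 with normexp.

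Abcc4 (MRP4), a pump that returns bile acids to the blood, had values of 0.240, 0.336 and 0.304 in the normal livers and 0.470, 2.69 and 0.345 in the tumors. Tumor 2 stood far above the other tumors, and the log2 fold change of 1.39 (SE 0.74), or 0.77 with normexp, was not called (adjusted p = 0.193).

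**Figure D4:**
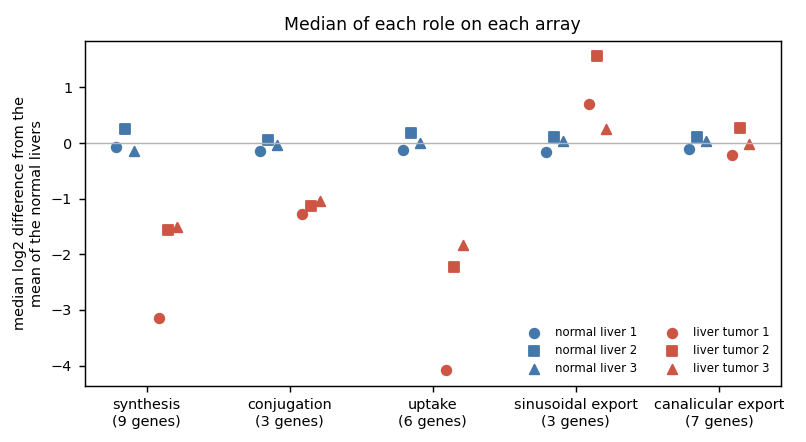
Median over the genes of each role of the log2 difference between a sample and the mean of the normal livers (y axis), for 5 roles (x axis), with blue for normal livers and red for liver tumors. For synthesis the median was -3.15 in tumor 1, -1.57 in tumor 2 and -1.51 in tumor 3, and for canalicular export the tumors lay between -0.21 and 0.28.

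Of the 2 nuclear receptors, Nr1h4 was called lower and Nr0b2 was not called. Nr1h4 had values of 32.7, 47.4 and 50.9 in the normal livers and 14.7, 18.7 and 22.7 in the tumors, and changed by -1.22 on the log2 scale (SE 0.23, adjusted p = 0.0101). Nr0b2, a corepressor without a DNA-binding domain that is a classic target of Nr1h4, had values of 1.44, 3.33 and 4.16 against 1.66, 3.28 and 3.998. Its groups overlapped over nearly their whole range, with a log2 fold change of 0.041 (SE 0.48, adjusted p = 0.957), and the wide 95% interval ran from -1.12 to 1.20.

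Of 3 textbook targets of Nr1h4, Abcb11 was called lower, Nr0b2 was not called, and Slc51b, near background in the normal livers, was called higher. The 150 bases before the RefSeq start of each (GRCm38.p6) are shown in the direction of the gene, because Nr1h4 is known to bind, with Rxra, inverted repeats of AGGTCA spaced by 1 base. Capitals mark matches to such a repeat with at most 2 mismatches, on either strand.
Abcb11, minus strand, chr2:69342617-69342766: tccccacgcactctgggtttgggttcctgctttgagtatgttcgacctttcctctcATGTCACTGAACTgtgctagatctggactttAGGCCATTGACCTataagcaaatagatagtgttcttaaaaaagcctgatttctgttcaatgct
Slc51b, minus strand, chr9:65422774-65422923: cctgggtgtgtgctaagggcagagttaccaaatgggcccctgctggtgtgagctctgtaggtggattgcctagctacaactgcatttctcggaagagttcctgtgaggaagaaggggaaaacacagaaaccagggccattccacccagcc
Nr0b2, plus strand, chr4:133553226-133553375: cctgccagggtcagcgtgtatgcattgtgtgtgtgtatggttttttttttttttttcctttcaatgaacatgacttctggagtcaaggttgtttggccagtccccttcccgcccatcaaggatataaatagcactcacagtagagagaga

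The 2 matches in the Abcb11 window began 94 and 63 bases before the start, with 2 and 1 mismatches. Over the 250 bases before the start, 23 of the 31 genes had a window in the RefSeq table, and the inverted repeat was found in Abcb11 and Slco1b2 alone. The Slco1b2 match, AGGACAGTGACCT, began 88 bases before the start used and had 1 mismatch. Of all 32851 windows, 0.959% held the inverted repeat. A direct repeat of AGGTCA spaced by 1 base, with at most 2 mismatches, was found in Nr1h4 and Slco1a1 and in 3.24% of all windows. CAAGGTCA was found in 0 of the 23 windows and in 1.33% of all windows. These matches describe letters only, and Cyp7a1 and Cyp7b1 had no window in the table. Bases farther upstream than these 250 were not searched, so a gene without a match here may hold one there.

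Of 53 other genes of the pathway, 46 were tested, with a median log2 fold change of -0.38. Of these, 20 were called lower and 3 higher, beside 21.0% and 13.1% of all genes tested. Among 16 tested genes of other synthesis steps, 11 were called lower, beside the same 21.0%. The largest changes with the groups apart were those of Akr1c6, a hydroxysteroid dehydrogenase (log2 fold change -2.09), Cyp2c70, which makes the muricholic acids of mice (-1.99), and Cyp46a1. Cyp2c70 fell from 723, 635 and 846 to 127, 198 and 246, with no overlap.

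Among 16 tested genes of other transport, 5 were called lower and 3 higher, not far from the 21.0% and 13.1% of all genes tested. Abcc5, an organic anion and nucleotide pump, was higher, with values of 0.494, 0.489 and 0.499 in the normal livers and 5.46, 6.13 and 3.06 in the tumors (log2 fold change 3.24, SE 0.26, adjusted p = 0.000583, or 2.51 with normexp). Abcc6, a basolateral pump of hepatocytes, fell from 29.0, 26.6 and 22.5 to 4.76, 10.2 and 9.98, with no overlap (log2 fold change -1.72, SE 0.31, adjusted p = 0.00867).

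Among 14 tested regulators, 4 were called lower, not far from the 21.0% of all genes tested, and 0 higher, beside 13.1%. The log2 fold change was negative for 11 of the 14, beside 61.9% of all genes tested. Nr1i3 (CAR), a receptor for xenobiotics that also controls transporters, fell from 26.5, 27.2 and 26.2 to 3.65, 6.94 and 5.66, a change of -2.35 on the log2 scale (SE 0.23, adjusted p = 0.00131). Rxra, the partner of Nr1h4, had a log2 fold change of -0.81, and Fgfr4, the hepatic receptor for the ileal hormone that represses Cyp7a1, of -0.74. Klb, the coreceptor of Fgfr4, was not called (log2 fold change -0.72, SE 0.23, adjusted p = 0.0559), nor were the activators of synthesis genes Nr5a2 (-0.33, adjusted p = 0.167) and Hnf4a (0.16, adjusted p = 0.436).

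Tumor 1 had the lowest value of the tumors in 16 of the 17 genes called lower, beside 66.8% of all genes called lower. In 10 of the 30 genes it was more than 1 log2 unit below the mean of the other tumors, by 5.05 for Cyp7b1 and by at least 4.52 for Slco1a1, counted from the lowest signal well above background on that array. Without tumor 1, the log2 fold change was -3.40 for Cyp7b1, -3.28 for Cyp7a1, -2.75 for Cyp8b1, -2.31 for Slco1b2 and -2.39 for Slco2b1, and 18 genes were called lower and 3 higher. With each of the 6 arrays left out in turn, 11 of the 17 genes called lower and 2 of the 3 called higher stayed called every time.

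**Figure D5:**
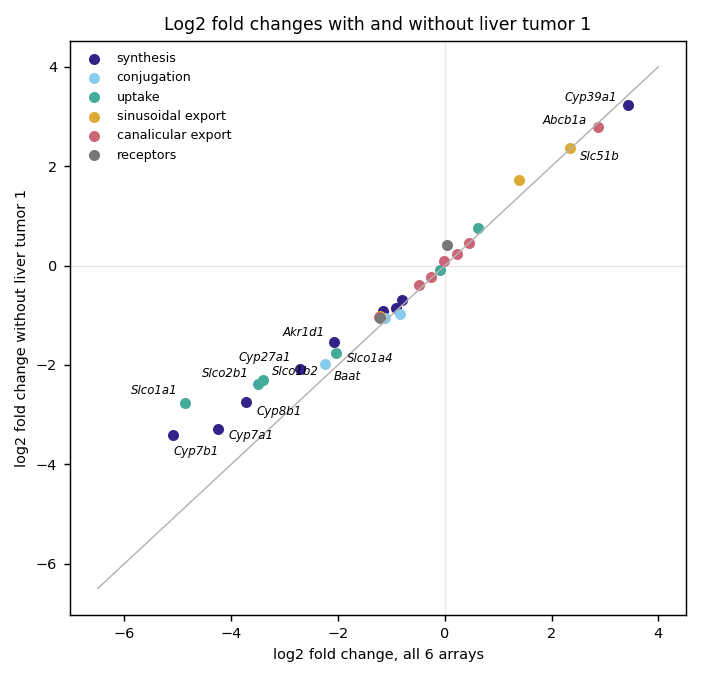
The log2 fold change without liver tumor 1 (y axis) against that with all 6 arrays (x axis) for the 30 tested genes, colored by role, with the line of equality in gray. Cyp7b1 moved from -5.09 to -3.40 and Slco1a1 from -4.86 to -2.77, while Cyp39a1, Abcb1a and Slc51b stayed near the line.

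The cell type markers were examined beside these results. Of 10 hepatocyte markers, 1 was called higher (Apoa1) and 1 lower (Asgr1), and the list's median log2 fold change was -0.081. Their summed expression value, which weighs the brightest probes most, was 10654 to 11720 in the normal livers and 10565 to 11106 in the tumors. Albumin (Alb) had a log2 fold change of -0.059 (adjusted p = 0.760). Of 10 cholangiocyte markers 7 were tested and 1, Anxa4, was called higher, and the defining marker Krt19 was not called (log2 fold change -0.63, adjusted p = 0.249), while Krt7, Epcam and Tff2 were not tested. The summed value of that list was 10.5 to 12.1 in the normal livers and 15.4 to 19.1 in the tumors, and most of it was Anxa4. Without Anxa4 the sum was 2.86 to 3.56 in the normal livers and 2.42 to 2.76 in the tumors, and the list's median log2 fold change was -0.19. Macrophage markers were called lower for 6 of 10, endothelial markers for 2 of 10 (1 higher) and markers of stellate cells and fibroblasts for 5 of 10 (2 higher), beside 21.0% lower and 13.1% higher over all genes tested. Among the macrophage markers called lower, Itgam was read by a probe that shared stretches of 16 bases with 39 probes of other genes. Those stretches also occurred in 178 of 32851 RefSeq promoter windows, and what share of that signal came from Itgam was not tested. The part of other cell types in the results above was not tested. In bulk tissue, fewer cells of a type and less RNA per cell cannot be told apart.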

How the data were processed

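RNA of 3 normal livers and 3 liver tumors was measured on 6 arrays. The authors deposited Feature Extraction output (version 10.7.3.1 by the file headers, 12.0.3.1 by the submitters' processing notes) with processed signal intensities, corrected for background and spatial trend, and a table of these signals as a ratio to the array's 75th percentile. Here the deposited intensities were taken to log2 and each array's log2 75th percentile over all spots was subtracted. Control and outlier spots were left out. Of 55681 probes, 24901 were well above background in every sample of 1 group or both, and these entered limma 3.58.1 in R 4.3.3, two-sided, with no covariate. Each gene was followed through its probe of highest mean log2 signal. Genes named are all 31, of each list of other pathway genes the 3 called ones with the largest change and groups apart, and Nr5a2, Hnf4a, Fgfr4, Klb, Alb and Krt19. A single gene that this rule takes is not reported here. The members and lists were chosen with earlier results of these data known. Names, positions and promoter sequences came from RefSeq annotation of GRCm38.p6. The fit was tested on simulated data of 3 tumors against 3 normal livers over 24889 probes. There it called 152 of 200 changed probes, 49.3% of those changed by 2-fold and 93.9% of those changed by 8-fold, with 5 false calls. The simulation gave both groups equal noise and changed few probes, whereas 3112 probes were called higher and 5127 lower in the real arrays. Its rates therefore need not hold for these data. Tables and figures were made in Python 3.11.15 (matplotlib 3.10.9, numpy 2.4.6, pandas 2.3.3, scipy 1.17.1). The number of arrays limits the precision. Alternatives were the background correction, the scaling, the filter, the deposited table, a replicate block, a trended eBayes, probe means per gene, the methods' t-test in both forms, and each array left out.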

Additional observations from a re-analysis of the deposited data

How the results depend on the processing

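The counts of genes called lower and higher were 17 and 3 in the main analysis. Under spike-in scaling, where 7.31% of all genes tested were called lower and 14.0% higher, 8 of the 12 genes of synthesis and conjugation and 10 of the other pathway genes were called lower. With quantile normalization 6 of the other pathway genes were called higher, beside 14.9% of all genes tested. With no filter on dim probes, 10 genes were called lower, 6 of synthesis and conjugation, 1 of uptake, and 1 export gene was called higher, with 13 lower and 1 higher of the other pathway genes. With probes well above background on all 6 arrays, and in the methods' unpaired t-test, 1 export gene was called higher, since Slc51b was not tested or not called.

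With 1 array left out, 11 to 18 genes were called lower and 2 to 3 higher, 7 to 11 lower in synthesis and conjugation, 1 to 4 lower in uptake, 1 to 2 higher and 2 to 3 lower in export, and 14 to 19 lower and 1 to 3 higher among the other pathway genes. The lowest count of 11 was without normal liver 2, and the other pathway genes called higher numbered 1 without normal liver 1, normal liver 2 or tumor 1. Without any 1 of the normal livers, Cyp7b1, Slco1b2 and Slco2b1 were no longer called. Cyp7a1 was lost without normal liver 2, normal liver 3 or tumor 2, Cyp8b1 without normal liver 1 or 2, Akr1d1 without normal liver 2, and Slc51b without normal liver 2, normal liver 3 or tumor 3. For these losses the cause was not tested.

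Same-numbered samples correlated in their deviations from the group means by 0.069, 0.13 and 0.051. For numbers 1 and 2, but not 3, the normal liver and the tumor of that number were each other's closest match. These values do not settle whether the numbers pair the samples, and the main fit took no pairs because no label states them. With the replicate number as a block the counts were 17 lower and 3 higher. In the paired form of the methods' t-test, 0 genes of any list were called after Benjamini-Hochberg adjustment, and 0 of all 24901 probes, while 16 genes were lower and 2 higher at an unadjusted p under 0.05.

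Directions that turned belonged to genes near 0 that were not called. Slc10a1 by its bright probe was 0.014 with normexp, 0.17 with quantile normalization and 0.12 with spike-in scaling, and Alb was 0.056, 0.082 and 0.15. Abcg8 was 0.045 with quantile normalization and 0.20 with spike-in scaling, and ranged from -0.32 to 0.21 with 1 array left out. Nr0b2 ranged from -0.42 to 0.42.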
